A study of Mus musculus with 12 samples.

Results

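The genes described here are 10 feedback inhibitors of the ERK branch of mitogen-activated protein kinase (MAPK) signaling, chosen by symbol: *Dusp1*, *Dusp4*, *Dusp5*, *Dusp6*, *Dusp14*, *Spry1*, *Spry2*, *Spry4*, *Spred1* and *Spred2*. They are 10 of the 17202 genes in the table of normalized counts, and all 10 were among the 17111 genes tested. RNA was sequenced from the cortex of 12 adult mice in 4 groups of 3. The wild-type controls (VEH-WT) and the complete deletion mice (VEH-CD) are labelled untreated, and the study's methods give these controls vehicle in the drinking water. The other groups, VERCUR-WT and VERCUR-CD, were wild-type and CD mice that drank verapamil and curcumin together, with daily doses labelled as 60 mg/kg (curcumin) and 10 mg/kg (verapamil). The labels start the treatment at 8 weeks of age, give it 1 month and place the dissection at 16 weeks, intervals that do not add up, and the study's methods state a lower verapamil dose and a younger age. CD mice carry a heterozygous deletion from *Gtf2i* to *Fkbp6*, a model of the deletion of Williams–Beuren syndrome, on a mostly C57BL/6J background. They had been crossed with Thy1-YFP mice, in which a neuronal promoter drives a fluorescent protein in pyramidal neurons, so the deletion is in every cell while the transgene marks neurons only. The tissue is labelled cortex, the frontal cortex by the study's methods, and in bulk RNA fewer cells of a type and less RNA per cell cannot be told apart.

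ERK is switched on by growth factor receptors, neurotrophins and synaptic calcium through Ras, Raf and MEK, and it is switched off in part by proteins whose genes it induces. The Dusp proteins are phosphatases that remove phosphate from the kinases themselves, whereas Sprouty and Spred proteins act upstream, between the receptor and Raf. In neurons several of these genes respond to activity within minutes to hours, so that their mRNA is often read as a trace of recent ERK signaling, although the mRNA level does not measure the kinase or the inhibitor protein.

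Depth differed between mice. The low values in the table were whole multiples of a step in each mouse, which gave 40290000 to 56480000 reads per mouse. All VERCUR-CD mice had 51010000 reads or more, while the lowest mice of VEH-WT, VEH-CD and VERCUR-WT had 41960000, 40290000 and 40950000. The logged profiles of mice of a group correlated at 0.986 to 0.994 across genes. The deletion was seen in the labelled mice: *Gtf2i* lay at 11579 to 12750 normalized counts in the 6 WT mice and at 5916 to 6729 in the 6 CD mice. Markers of cortical excitatory neurons were abundant in every mouse, with a summed level of 277800 to 348920 normalized counts. Markers of striatal neurons, a region next to the cortex, were uneven: their sum was 24114 to 32831 normalized counts in 1 mouse of each group (mouse 3 in both WT groups and mouse 1 in both CD groups) and lower in the other 8, at 13853 to 15643 in the 4 vehicle mice and 7343 to 8860 in the 4 co-treated mice. None of the marker genes found in the table was at 0 in any mouse. Of the 10 feedback genes, *Spred2* had the lowest correlation with the striatal marker level within groups, at -0.60, and *Dusp5* the highest, at 0.43 (12 mice, the same libraries on both axes), and the part of dissection in the results below was not tested.

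None of the 10 genes lies on chromosome 5, which carries the deletion. By GENCODE M21 (GRCm38) *Dusp4* is at chr8:34807297-34819894 (plus strand), *Dusp5* at chr19:53529109-53542431 (plus) and *Dusp6* at chr10:99263231-99267489 (plus), and by RefSeq *Dusp1* is at chr17:26505591-26508472 (minus).

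The start sites of 8 of the 10 genes were matched to promoter windows from RefSeq (GRCm38.p6), each running from 250 bases before to 50 bases after the annotated start. *Dusp4* and *Spry4* had no entry. Stretches from 210 to 40 bases before the start are printed for 3 phosphatase genes, because *Dusp1* and *Dusp5* were the genes with the widest swings between mice and hold elements known from activity-induced genes, and *Dusp6*, which moved with them, holds none of the letters searched. Capitals mark the cAMP response element TGACGTCA, its core TGACG (or that core on the other strand) and CArG boxes, the element bound by serum response factor.
Dusp1, minus strand, chr17:26508512-26508682: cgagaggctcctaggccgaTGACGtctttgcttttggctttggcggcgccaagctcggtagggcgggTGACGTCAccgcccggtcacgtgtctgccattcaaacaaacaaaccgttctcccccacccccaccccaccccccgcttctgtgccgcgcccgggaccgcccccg
Dusp5, plus strand, chr19:53528935-53529105: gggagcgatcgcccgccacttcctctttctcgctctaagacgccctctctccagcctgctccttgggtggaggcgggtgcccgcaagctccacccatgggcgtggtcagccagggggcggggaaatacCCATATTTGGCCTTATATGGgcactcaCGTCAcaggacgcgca
Dusp6, plus strand, chr10:99263021-99263191: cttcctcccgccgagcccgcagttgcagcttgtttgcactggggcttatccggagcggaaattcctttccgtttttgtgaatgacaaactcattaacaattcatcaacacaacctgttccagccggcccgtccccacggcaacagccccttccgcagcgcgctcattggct
The *Dusp1* window held the full cAMP response element from 143 to 136 bases before the start, a sequence present in 1.79% of 32851 windows, and a further core from 191 to 187 bases before it. The full element is its own reverse complement and so holds a core on each strand. In the *Dusp5* window 2 CArG boxes stood next to each other, from 82 to 63 bases before the start, with a core 55 to 51 bases before it. A CArG box was present in 1.63% of windows and the core in 20.8%. *Spred2* held 1 core. No window of the 8 genes held the AP-1 letters TGANTCA (7.81% of windows), the ETS letters CCGGAAG (8.86%) or the EGR letters GCGTGGGCG (0.612%), on either strand. These matches describe letters in short windows and do not show that a factor binds there.

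Set per kilobase of merged exon (GENCODE M21), the 10 genes covered a wide range of levels in VEH-WT cortex. *Dusp14*, a small atypical phosphatase, had the highest level at 1900 ± 311 normalized counts per kb (mean ± SD, n = 3 mice here and below), next to *Spred1* at 1584 ± 122. *Spry2*, *Dusp6* and *Spred2* followed at 1211 ± 81.1, 1146 ± 173 and 1090 ± 137, and these neighbours did not differ beyond their spread. *Dusp1* lay at 719 ± 49.4 and *Dusp5* at 361 ± 105. *Spry4* and *Dusp4* were close together at 189.5 ± 27.9 and 177 ± 72.1, and *Spry1* was lowest at 103 ± 16.1. All other values below are normalized counts not divided by length, and compare mice within a gene.

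The first comparison asked what the deletion did without co-treatment. In VEH-CD cortex all 10 genes had a mean log2 level below that of VEH-WT, against 50.7% of all genes. A single gene, *Spry4*, passed the test for a differentially expressed gene (DEG; limma, adjusted p under 0.05 over all genes and a mean difference of more than 25% either way), where 0.257% of all genes passed, 0.205% as lower. The median log2 fold change of the 10 genes was -0.57, beside -0.0028 over all genes. The genes with the largest differences were *Spry4*, *Dusp4*, *Dusp5*, *Dusp6* and *Dusp1*, and for these 5 the VEH-CD mice all lay below all VEH-WT mice. Over all genes 11.4% separated in this direction. With 3 mice a group, the p-values rest on a spread estimated over all 12 mice, not only those compared.

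**Figure D1:**
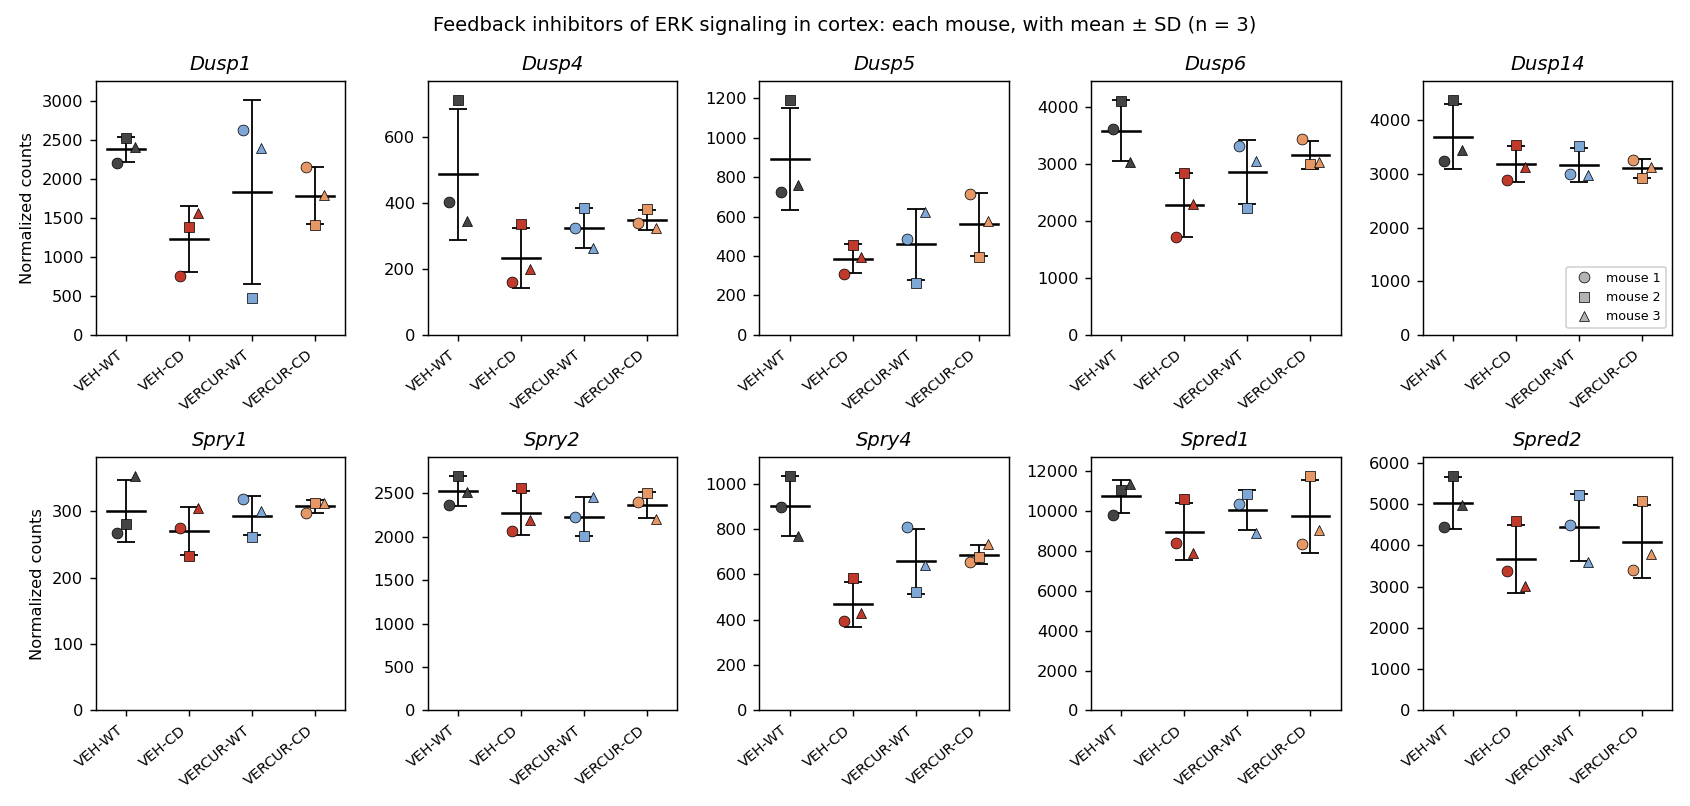
Normalized counts of the 10 genes (vertical axis, from 0) in each of 12 mice, by group, where symbols mark the mouse number within a group, horizontal lines the mean and bars the SD (n = 3). The red VEH-CD points lie below all dark VEH-WT points for Dusp1, Dusp4, Dusp5, Dusp6 and Spry4, and VERCUR-WT mouse 2 is far below its group for Dusp1, at 473 normalized counts.

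*Spry4*, a Sprouty protein that blocks receptor-driven Ras activation, was the gene that passed. Its levels were 896.7, 1036 and 770.9 normalized counts in the VEH-WT mice and 393.0, 581.9 and 431.2 in the VEH-CD mice. Each VEH-CD mouse was well below the lowest control, with VEH-CD 2 closest to it. *Spry4* fell by 0.95 on the log2 scale (SE 0.17, 95% interval -1.32 to -0.58, adjusted p = 0.0404 by limma). That call rests on the spread borrowed from all 12 mice: it was lost when any 1 of 5 of the 6 mice compared was left out (adjusted p 0.0591 to 0.223) and kept without VEH-CD 2 (adjusted p = 0.0196). The log2 fold change without VEH-CD 1, the lowest mouse, was -0.84. The other Sprouty genes did not separate. *Spry2*, a broadly expressed inhibitor of receptor signaling, ranged from 2368 to 2705 normalized counts in the VEH-WT mice and from 2066 to 2562 in the VEH-CD mice (log2 fold change -0.16, SE 0.095, adjusted p = 0.545). For *Spry1* the ranges were 266.8 to 353.7 and 233.1 to 304.3, and the log2 fold change was -0.15 (SE 0.13, adjusted p = 0.678). About 24.4% of the exon bases of *Spry1* are also covered by a predicted transcript on the other strand, and the sources used here do not say whether counting used strand.

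Among the phosphatases, *Dusp6* removes phosphate from ERK in the cytoplasm and is induced by ERK itself. The VEH-WT mice had 3617, 4116 and 3035 normalized counts, and the VEH-CD mice had 1723, 2842 and 2294. The groups did not overlap, but VEH-CD 2 came close to the lowest control, and the log2 fold change of -0.67 (SE 0.18) had an adjusted p of 0.182. *Dusp5*, which acts on ERK in the nucleus, was counted at 725.2, 1193 and 760.5 in the VEH-WT mice and at 310.8, 457.4 and 392.9 in the VEH-CD mice. The highest VEH-CD mouse was far below the lowest control, while VEH-WT 2 stood above the other controls. The difference was -1.18 on the log2 scale (SE 0.30, adjusted p = 0.160). *Dusp5* shares 22.1% of its exon bases with an annotated antisense transcript.

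*Dusp4*, a nuclear phosphatase of ERK and JNK, was at 401.3, 711.2 and 344.2 normalized counts in the VEH-WT mice and at 161.1, 334.7 and 200.04 in the VEH-CD mice. The gap between the groups was narrow, from 334.7 to 344.2, and the log2 fold change was -1.06 (SE 0.28, adjusted p = 0.173). *Dusp1*, an immediate early phosphatase that prefers p38 and JNK over ERK, had tight controls at 2202, 2524 and 2416 normalized counts and spread VEH-CD mice at 755.2, 1390 and 1562. Its log2 fold change of -1.01 had an SE of 0.50 (adjusted p = 0.460). The fit takes its error from all groups, and the SD of *Dusp1* was largest in VERCUR-WT, at 1184 normalized counts. *Dusp14* overlapped between groups, with 3246 to 4384 and 2886 to 3551 normalized counts (log2 fold change -0.21, SE 0.11, adjusted p = 0.501).

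The Spred proteins bring neurofibromin, which inactivates Ras, to the membrane. *Spred2* stood at 4436, 5696 and 4970 normalized counts in the VEH-WT mice and at 3379, 4598 and 3021 in the VEH-CD mice, so that VEH-CD 2 overlapped the controls (log2 fold change -0.47, SE 0.18, adjusted p = 0.331). *Spred1*, the most deeply counted of the 10 genes, ran from 9800 to 11358 in VEH-WT and from 7917 to 10612 in VEH-CD (log2 fold change -0.27, SE 0.13, adjusted p = 0.461). Without adjustment, 5 genes had p under 0.05 (*Dusp4*, *Dusp5*, *Dusp6*, *Spry4* and *Spred2*), all lower, against 6.73% of all genes in that direction.

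The next comparison put the same question to the co-treated mice, on 6 animals that the vehicle comparison did not use. None of the 10 genes was a DEG between VERCUR-CD and VERCUR-WT by limma, where 0.146% of all genes were, and none had an unadjusted p under 0.05, where 4.1% of all genes did. The groups overlapped for every one of the 10 (7.74% of all genes did not overlap), and 3 genes had a log2 fold change below 0 (48.4% of all genes), with a median of 0.087. *Spry4* had 809.5, 522.4 and 641.7 normalized counts in VERCUR-WT and 652.6, 677.2 and 732.4 in VERCUR-CD. The VERCUR-CD mice sat inside the range of VERCUR-WT, and the log2 fold change was 0.085 with a 95% interval from -0.28 to 0.45. That interval does not reach the difference of -0.95 in the vehicle comparison, whose own interval ran from -1.32 to -0.58. *Spry4* was singled out by that comparison, and setting intervals side by side does not test the difference between the effects. The direct test, the interaction given below, missed the threshold (adjusted p = 0.783 by limma). *Dusp6* had 3315, 2225 and 3051 normalized counts in VERCUR-WT and 3437, 2996 and 3033 in VERCUR-CD (log2 fold change 0.16, 95% interval -0.23 to 0.55). *Dusp4* was at 322.9, 385.3 and 262.2 and then 338.5, 380.4 and 324.3 normalized counts (0.12, 95% interval -0.49 to 0.72). All adjusted p-values of the 10 genes were 0.9999, and the intervals, not the p-values, give the size of difference that could have been missed.

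**Figure D2:**
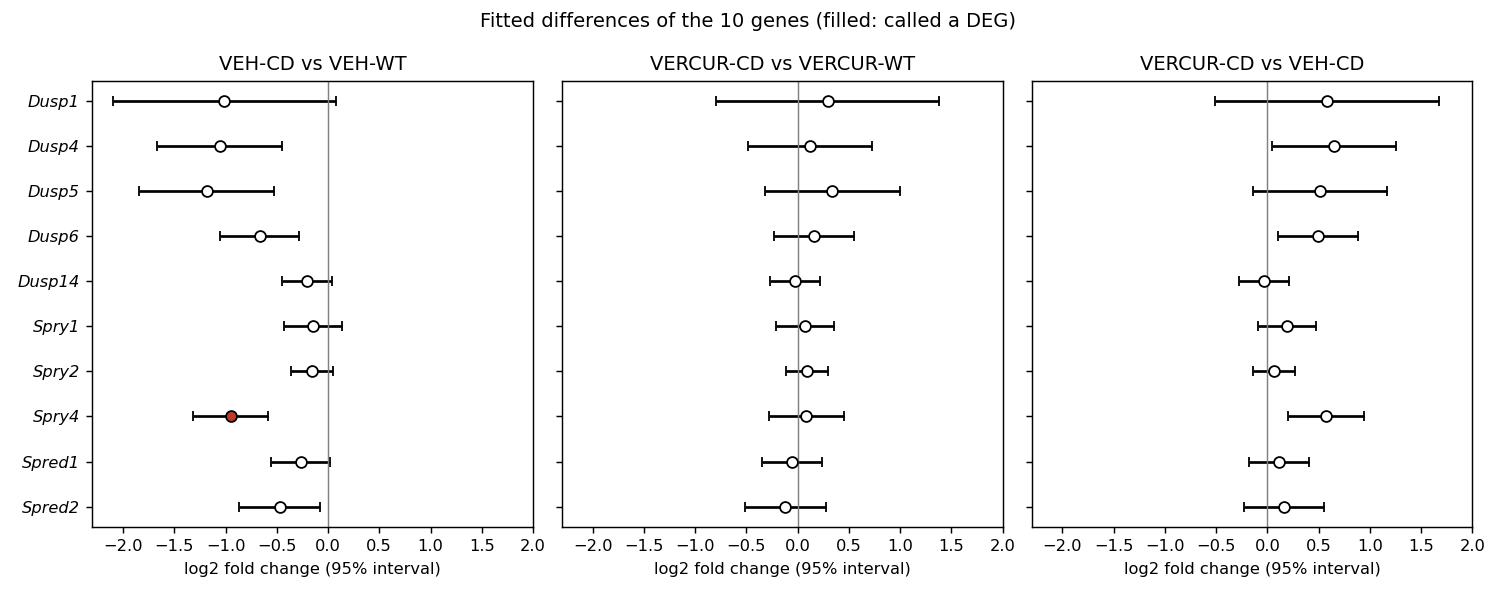
Log2 fold change (horizontal axis) of each gene with its 95% interval from limma in the comparisons VEH-CD vs VEH-WT, VERCUR-CD vs VERCUR-WT and VERCUR-CD vs VEH-CD, where a filled point marks a DEG. All 10 points are left of 0 in the first panel, Spry4 is the filled one at -0.95, and in the second panel every interval crosses 0.

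VERCUR-WT 2 decided part of this comparison. It had 473.3 normalized counts of *Dusp1*, against 2632 and 2398 in the other VERCUR-WT mice, and 264.9 of *Dusp5*, against 485.5 and 625.3. It was also the lowest of its group for *Dusp6*, *Spry4*, *Spry2* and *Spry1*, but the highest for *Dusp4*, *Dusp14*, *Spred1* and *Spred2*. Without it the difference between VERCUR-CD and VERCUR-WT was -0.51 for *Dusp1* in place of 0.29, and -0.070 for *Spry4* in place of 0.085. For *Dusp5* and *Dusp6* it was -0.012 and -0.014 in place of 0.34 and 0.16, while *Dusp4* was at 0.25 in place of 0.12. No gene of the 10 was called either way.

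Co-treatment within CD mice was then examined. This comparison shares its VEH-CD mice with the vehicle comparison, so a low value in those mice enters both, and the 2 are not independent. Over all 17111 genes limma called none between VERCUR-CD and VEH-CD (0% of genes, smallest adjusted p 0.159), and 605 (3.54%) had an unadjusted p under 0.05. Of the 10 genes 9 had a higher mean log2 level in VERCUR-CD and 1 a lower one, where 49.2% of all genes were lower, and 3 had an unadjusted p under 0.05. *Spry4*, at 652.6 to 732.4 normalized counts in VERCUR-CD, lay above all VEH-CD mice, which reached 581.9 (log2 fold change 0.57, SE 0.17, unadjusted p = 0.00550, adjusted p = 0.867). *Dusp6*, at 2996 to 3437, also lay above all VEH-CD mice, which reached 2842 (0.49, SE 0.18, unadjusted p = 0.0174). These were the 2 genes of the 10 whose groups did not overlap, against 8.34% of all genes. *Dusp4* had a log2 fold change of 0.65 (SE 0.28, unadjusted p = 0.0380), with VEH-CD 2 at 334.7 normalized counts inside the VERCUR-CD range. *Dusp1* and *Dusp5* differed by 0.58 (SE 0.50) and 0.51 (SE 0.30). For *Dusp14*, *Spry1*, *Spry2*, *Spred1* and *Spred2* the differences ran from -0.035 to 0.19. Without VEH-CD 1, the lowest of its group for *Dusp1*, *Dusp4*, *Dusp5*, *Dusp6* and *Spry4*, the differences were 0.26 for *Dusp1*, 0.42 for *Dusp4* and 0.30 for *Dusp6*, and without VERCUR-CD 1 that of *Dusp5* was 0.32. The striatal markers were lower in co-treated CD mice, with 6 of 6 below 0, a median log2 fold change of -0.89 and none a DEG, and their part in these differences was not tested.

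In wild-type mice the co-treatment comparison pointed the other way. It shares its VEH-WT mice with the vehicle comparison, so a high value in those mice enters both. VERCUR-WT had a lower mean log2 level than VEH-WT for all 10 genes (50.5% of all genes), and again limma called no gene of the 17111 (0%, smallest adjusted p 0.206). An unadjusted p under 0.05 was found for 2 of the 10 and for 5.22% of all genes (893). *Dusp5* was at 485.5, 264.9 and 625.3 normalized counts in VERCUR-WT, below all VEH-WT mice, which started at 725.2 (log2 fold change -1.01, SE 0.30, unadjusted p = 0.00567, adjusted p = 0.944). It was the 1 gene of the 10 that separated, where 9.72% of all genes did, and without VERCUR-WT 2 its log2 fold change was -0.66. *Spry4* differed by -0.47 (SE 0.17, unadjusted p = 0.0175, adjusted p = 0.944), and by -0.31 without that mouse. *Dusp1*, *Dusp4* and *Dusp6* differed by -0.72, -0.53 and -0.34, none past an unadjusted p of 0.05, and *Dusp1* by 0.080 and *Dusp6* by -0.16 without VERCUR-WT 2. Without VEH-WT 2, the highest control for *Dusp4*, that gene differed by -0.22. The 6 striatal markers were again all lower with co-treatment (median -0.64, none a DEG), and their part was not tested here either.

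VERCUR-CD was also set against VEH-WT, the comparison that asks whether treated CD mice are back at the control level. It shares its control mice with the vehicle comparison. No gene of the 10 was a DEG (limma, 0.199% of all genes), 2 had an unadjusted p under 0.05 (8.68% of all genes), and 3 did not overlap, all lower in VERCUR-CD (*Dusp1*, *Dusp5* and *Spry4*, against 7.33% of all genes in that direction). *Spry4* differed by -0.38 (SE 0.17, unadjusted p = 0.0441, adjusted p = 0.562), beside -0.95 in VEH-CD. *Dusp5* differed by -0.67 (SE 0.30, adjusted p = 0.567), *Dusp1* by -0.43 (SE 0.50) and *Dusp6* by -0.18 (SE 0.18). Without VEH-WT 2 the difference was -0.44 for *Dusp5* and -0.073 for *Dusp6*, and without VERCUR-CD 2 it was -0.27 for *Dusp1* and -0.44 for *Dusp5*. The 6 striatal markers were all lower here too (median -0.76). The VERCUR-CD means of *Spry4* and *Dusp6* thus stood between those of VEH-CD and VEH-WT, at 687 ± 40.8 and 3156 ± 244 normalized counts.

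The 2 by 2 design allows the difference between these effects to be tested itself. The interaction of genotype and treatment was above 0 for all 10 genes, where 48.5% of all genes were below 0, and limma called none of the 17111 genes for it (0%, smallest adjusted p 0.532). *Spry4* had the smallest unadjusted p of the 10 genes, at 0.000937, with an interaction of 1.04 on the log2 scale (SE 0.24, adjusted p = 0.783). *Dusp5*, *Dusp6* and *Dusp4* had interactions of 1.52, 0.83 and 1.18 (unadjusted p = 0.00372, 0.00655 and 0.0111), so that 4 of the 10 had an unadjusted p under 0.05, against 6.05% of all genes. The genotype effect is therefore not shown to differ between treatments for any gene at the adjusted threshold. Averaged over both treatments, CD mice had lower log2 levels of all 10 genes (50.9% of all genes), none a DEG (0.321%), with *Spry4* at -0.43 (SE 0.12, adjusted p = 0.240). Averaged over both genotypes, co-treatment gave 5 genes above 0 and 5 below (49.9% of all genes below), none called (0% of all genes).

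**Figure D3:**
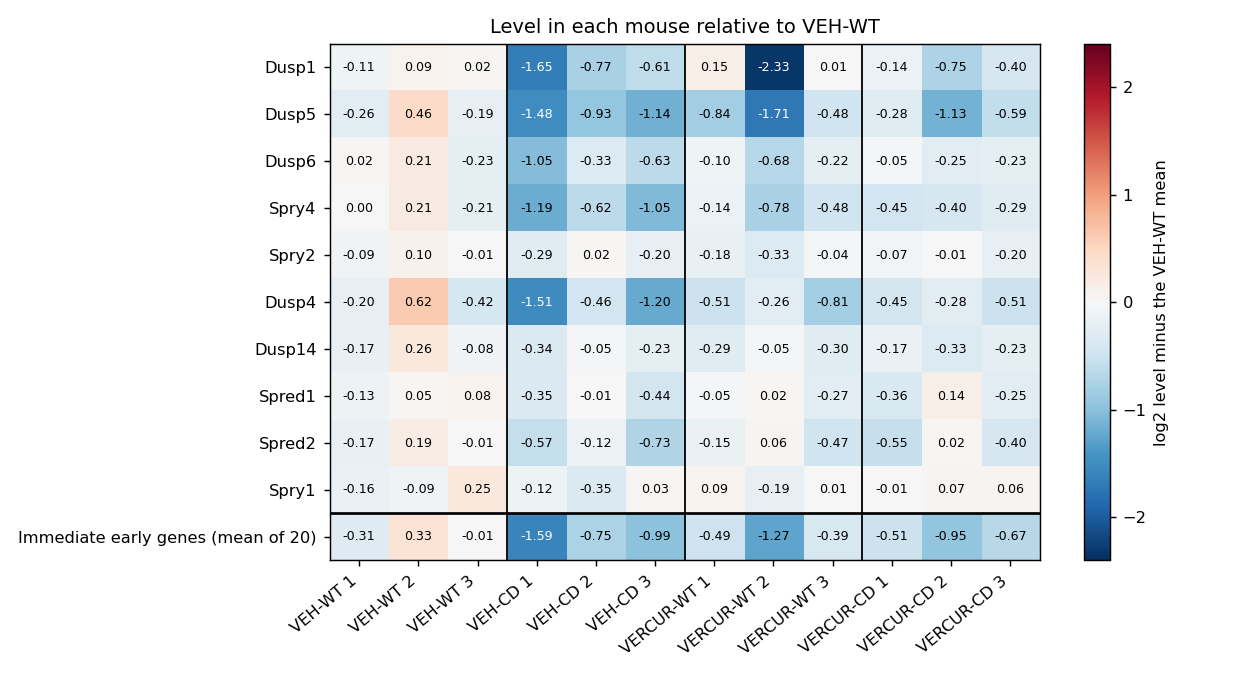
Log2 level of each gene in each mouse minus the VEH-WT mean (colour and printed value), with the mean of 20 immediate early genes in the bottom row and vertical lines between groups. VEH-CD 1 and VERCUR-WT 2 are the darkest columns for Dusp1 and Dusp5 and for the immediate early genes, whereas Spred1 and Spred2 of VERCUR-WT 2 are near 0.

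Mouse by mouse, the 10 genes did not move as a single block. *Dusp6* and *Spry4* followed each other most closely among the activity-linked members (Pearson's r = 0.93 and Spearman's rho = 0.86 over 12 mice, r = 0.92 without the 2 mice farthest from the median). *Dusp1*, *Dusp5* and *Dusp6* also went together, with r = 0.83 for *Dusp1* and *Dusp5* and 0.85 for *Dusp5* and *Dusp6*. *Spred1* and *Spred2* formed another pair (r = 0.96, rho = 0.94), and *Spred2* had an r of -0.0052 with *Dusp1*. *Dusp4* stood between them, with r = 0.83 to *Spry4*, 0.81 to *Spred2* and 0.32 to *Dusp1*. These correlations describe 12 libraries in which both genes come from the same mouse. Deviations from the group means gave 0.88 for *Dusp6* and *Spry4*, 0.96 for *Spred1* and *Spred2*, -0.10 for *Dusp1* and *Dusp4* and -0.41 for *Dusp1* and *Spred2*.

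**Figure D4:**
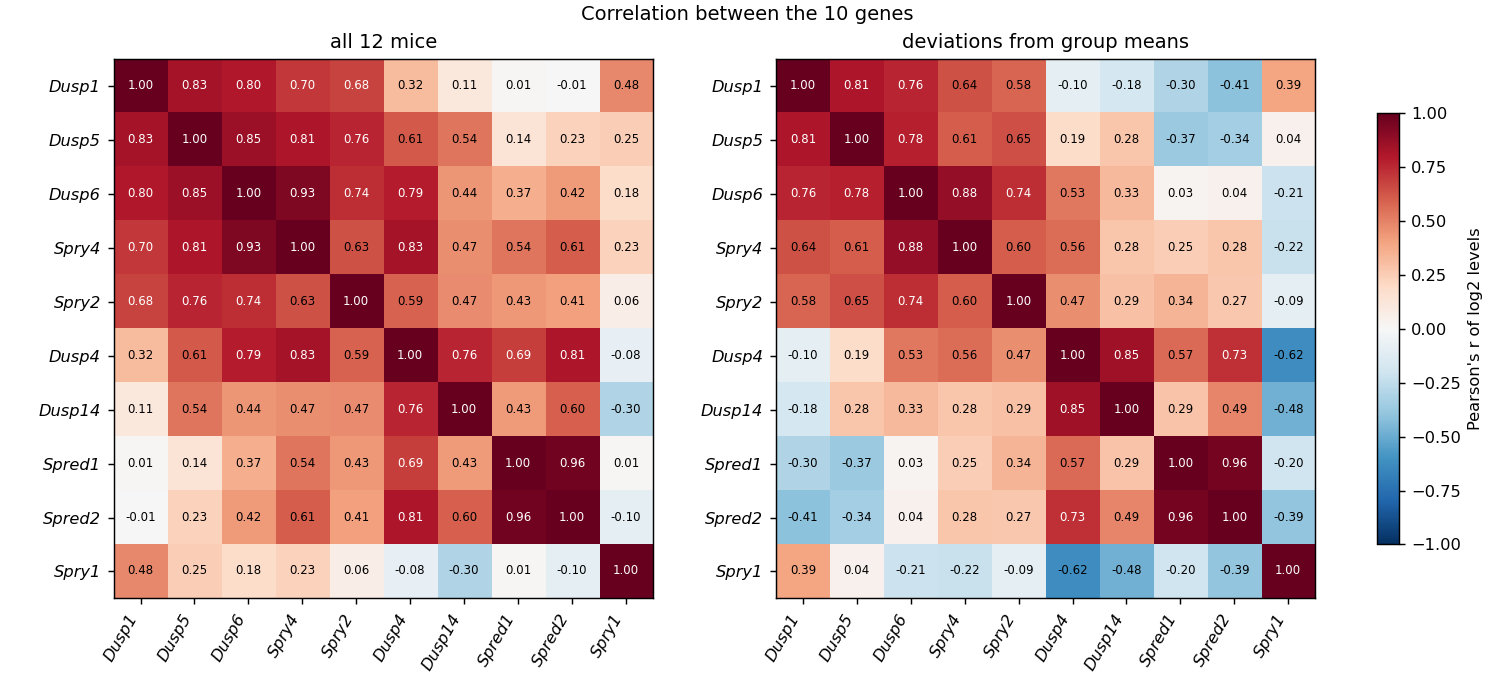
Pearson's r of log2 levels between the 10 genes over 12 mice (left) and after each group's mean was subtracted (right), in colour and as printed values. Dusp1, Dusp5, Dusp6, Spry4 and Spry2 form a block of r from 0.63 to 0.93 on the left, and Spred1 and Spred2 reach 0.96 on both sides.

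The genes whose pattern was most like each member, by Pearson's r over the 12 mice, are given here as a description. For *Dusp1* they were *Insm1*, *Junb* and *Ier2* (r = 0.97, 0.97 and 0.96), of which *Junb* and *Ier2* are immediate early genes. *Klf10*, another gene of that class, and *Ackr3* were among the nearest 3 for both *Dusp6* (r = 0.97 and 0.94) and *Spry4* (0.93 and 0.94), and *Rbm24* was nearest to *Spry4* (0.98). *Dusp5* was closest to *B3galnt2*, *Irf2bp2* and *Klhl21* (0.96 to 0.95), and *Dusp4* to *Trib2*, *Mnt* and *Bhlhe40* (0.95 to 0.94). *Spred2* was closest to *Srsf10*, *Ptpn9* and *Hivep3* (0.98 to 0.97) and *Spred1* to *Prr14l*, *Papola* and *Cpsf6* (0.96 to 0.95). *Dusp14* was nearest to *Slc20a1*, *Ccnk* and *Cdkn1a* (0.94), *Spry2* to *Ehmt1*, *Taf7* and *Zfp874b* (0.92 to 0.90) and *Spry1* to *Vgll4*, *Mfsd1* and *Heg1* (0.89 to 0.85).

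The level of 20 immediate early genes, which neurons transcribe within minutes of activity, moved with part of the group. The list was chosen with earlier results of these data known. In VEH-CD all 20 had a lower mean log2 level than in VEH-WT (50.7% of all genes), with a median log2 fold change of -1.08. Of the 20, 15 were lower at an unadjusted p under 0.05 (6.73% of all genes), and 2 fell as DEGs (0.205% of all genes). These were *Sik1*, a kinase that restrains CREB coactivators (-1.60, SE 0.27, adjusted p = 0.0286 by limma), and *Klf4*, a zinc finger factor (-0.96, SE 0.17, adjusted p = 0.0322). Summed, they gave 90018 to 141000 normalized counts in the VEH-WT mice against 36668 to 64035 in the VEH-CD mice, and 54870 to 81270 in VERCUR-WT against 56870 to 77011 in VERCUR-CD, so that each of the other groups lay wholly below VEH-WT. Over the 12 mice the mean log2 level of the 20 genes had an r of 0.95 with *Dusp5*, 0.89 with *Dusp6*, 0.87 with *Spry4* and 0.83 with *Dusp1*. Without the 2 mice farthest from the median these were 0.93, 0.75, 0.72 and 0.84. For *Dusp4* the r of 0.70 rested on those 2 mice (0.10 without them). *Spred1* and *Spred2* had r of 0.34 and 0.41. Time from handling to freezing, stress and time of day, to which these genes also respond, were not given for single mice, and their part in the differences was not tested.

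Of 12 genes that respond to glucocorticoids, 9 had a lower and 3 a higher mean log2 level in VEH-CD. None was a DEG, 6 were lower at an unadjusted p under 0.05 (6.73% of all genes), and the median difference was -0.45. *Tsc22d3*, a glucocorticoid-induced leucine zipper, differed by -0.64 (adjusted p = 0.159) and *Nfkbia*, the inhibitor of NF-κB, by -0.48 (adjusted p = 0.168). Of the 10 feedback genes *Dusp5* had the highest correlation with this list over the 12 mice (0.64, and 0.31 after group means were subtracted). *Spry4* and *Dusp6* had 0.37 and 0.31 over the mice, but -0.37 and -0.23 within groups.

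The rest of the ERK route was described by lists. No gene of the following lists was a DEG in VEH-CD (0.257% of all genes). The counts without adjustment below stand beside 6.73% of all genes that were lower at an unadjusted p under 0.05. Of 8 other MAP kinase phosphatase, Sprouty and Spred genes, 2 had an unadjusted p under 0.05, both lower (*Spry3* at -0.43, adjusted p = 0.341, and *Dusp7* at -0.14, adjusted p = 0.366), and the median was -0.0041. Of 12 other inhibitors of the route 2 were lower without adjustment. These were *Errfi1*, an inducible inhibitor of the EGF receptor (-0.42, adjusted p = 0.158), and *Cbl*, a ubiquitin ligase for receptors (-0.40, adjusted p = 0.340).

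Upstream, 24 receptors and ligands had a median of -0.16, with 2 lower without adjustment, *Fgfr1* (-0.18, adjusted p = 0.336) and *Hbegf* (-0.31, adjusted p = 0.372). The 20 adaptors, exchange factors and Ras genes had a median of -0.076, with *Nras* at -0.19 (adjusted p = 0.367) the 1 gene past an unadjusted p of 0.05 and *Sos1* next at -0.26 (adjusted p = 0.445). Among 15 kinases the median was -0.015, and 1 was lower and 2 higher without adjustment. The higher pair were *Mapk3*, which encodes ERK1 (0.20, adjusted p = 0.271), and *Araf* (0.13, adjusted p = 0.311). *Mapk3* had a similar difference between VERCUR-CD and VERCUR-WT, at 0.19 (SE 0.065, unadjusted p = 0.0131, adjusted p = 0.9999).

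Of 11 transcription factors through which ERK acts (ETS factors, *Srf* and *Creb1*), 2 were lower without adjustment and none was a DEG, with a median of -0.094. *Srf*, which encodes serum response factor, had a mean of 2423 ± 214 normalized counts in the VEH-WT group and 1840 ± 156 in the VEH-CD group (log2 fold change -0.40, SE 0.079, adjusted p = 0.0697). Its partner *Elk4* differed by -0.24 (adjusted p = 0.423). In VERCUR-WT and VERCUR-CD *Srf* was at 2098 ± 31.2 and 2010 ± 108 normalized counts. Between co-treated groups the medians of these 6 lists ran from -0.0054 to 0.043, and that of the immediate early genes was 0.0029.

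Markers of other cells were compared beside these results. No gene of the 11 marker lists was a DEG in any of the 5 comparisons between groups. In VEH-CD the interneuron markers differed by a median of -0.20 on the log2 scale, with 2 of 5 lower without adjustment, and they summed to 36814 to 39787 normalized counts in the VEH-WT mice against 32889 to 34931 in the VEH-CD mice. For oligodendrocytes the sums were 125020 to 197290 and 116560 to 147630, for astrocytes 39035 to 49864 and 39674 to 46341, for microglia 10095 to 11809 and 10852 to 12468, and for endothelial cells 6624 to 8401 and 6888 to 8984. Markers of oligodendrocyte precursors, in which Sprouty and Spred genes are also expressed, summed to 6279 to 8056 and 6594 to 7067. Meningeal fibroblast markers summed to 1671 to 1923 and 1511 to 2072, red blood cell markers to 17575 to 26146 and 20822 to 35997, and choroid plexus markers to 103 to 154 and 127 to 165. Interneurons were thus the 1 marker list whose sums did not overlap between VEH-WT and VEH-CD. Both co-treated groups also lay wholly below VEH-WT for this list, at 33933 to 36271 in VERCUR-WT and 34275 to 34624 in VERCUR-CD. Among single genes, 11.4% separated between VEH-WT and VEH-CD in this direction, and no such share was taken for sums of lists. The interneuron level had an r within groups from -0.83 with *Spred2* to 0.53 with *Spry1*, and of -0.60 with *Spry4*. Within groups, the mean log2 level of the excitatory neuron markers had an r of 0.94 with both *Spred1* and *Spred2* (0.84 and 0.78 over the 12 mice without regard to group). Endothelial markers went the other way from *Spry2*, *Dusp6* and *Dusp5* within groups (r = -0.92, -0.86 and -0.84), as microglial markers did from *Dusp6* and *Spry2* (both -0.85), and oligodendrocyte precursor markers from *Dusp14* and *Dusp4* (-0.88 and -0.85). *Spry4* had its strongest such values with endothelial (-0.72) and oligodendrocyte markers (-0.68). Most of these values were picked for their size among all pairs of a feedback gene and 1 of the 11 marker lists. Others came close within groups, such as *Dusp14* with astrocyte markers (-0.81) and *Dusp1* with choroid plexus markers (0.79). Marker and gene come from the same 12 libraries in each case. The part of cell composition in the lower levels of the feedback genes was not tested.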

How the data were processed

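Cortical RNA from 12 mice was analysed. The authors sequenced libraries as paired-end reads of 100 nt, checked them with FastQC and aligned them to GRCm38 with STAR 2.5.3a, per the labels and the study's methods. The program, annotation and normalization behind the gene values are not given in the sources used here. The deposited table holds normalized counts, recorded as another unit because its decimal commas kept the recovered whole reads from being checked, so no count test was run. Further lists of relative expression, chosen by the study, were not used.

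Values were analysed as log2(normalized count + 1), which understates changes of low genes, for genes with a mean of at least 10, by limma 3.58.1 (R 4.3.3) with an intensity trend, 1 fit of 4 group means and Benjamini-Hochberg adjustment over 17111 genes. Differentially expressed genes were those whose adjusted p was under 0.05 and whose fold change differed from 1 by more than 25%, and the interaction needed the adjusted p alone. The test was checked on simulated data. Normalized counts summed to 47430000 to 50770000 per mouse, and 40290000 to 56480000 reads were recovered from steps of the low values, 100% of which were whole within 0.1 of a step. Genes named are the 10 members, the 3 genes nearest to each by Pearson's r, and of each list the genes called and the 2 with the smallest p in the vehicle comparison. *Gtf2i*, as a check of the labels, and single values of listed genes in other groups were added after values were seen. The members and lists were chosen with earlier results of these data known. Alternatives covered pseudocount, filter, scaling, values of large spread, samples fitted, trend, weights, replicate block, call rule and leaving out each mouse. Deviations of same-numbered mice correlated at -0.35 to 0.27 (4 of 18 pairs above 0.1), so the numbers were not taken as pairs. The values were 0.061, 0.18 and 0.27 between VEH-WT and VERCUR-WT, and -0.35, -0.16 and -0.14 between VERCUR-WT and VERCUR-CD.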

Additional observations from a re-analysis of the deposited data

Results flagged for a closer look

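For 4 of the 10 genes every VERCUR-CD mouse lay above the VEH-CD mean and every VERCUR-WT mouse below the VEH-WT mean. Of all 17111 genes 4.27% did so in these directions. The interaction of genotype and treatment, on the log2 scale, was 1.18 for *Dusp4*, 1.52 for *Dusp5*, 0.83 for *Dusp6* and 1.04 for *Spry4*. The difference itself was tested by limma over all genes and missed the threshold (adjusted p = 0.816 for the first 3 genes and 0.783 for *Spry4*). Without VERCUR-WT 2 the interactions were 1.31, 1.17, 0.66 and 0.88. Groups of 3 mice were not tested for single outlying values.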

How the results depend on the processing

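Changes of pseudocount, low-value filter or scaling left *Spry4* as the 1 gene called between VEH-CD and VEH-WT, with adjusted p 0.0401 to 0.0484. The count was 0 with only genes of a CV under 20% in every group, but that filter dropped *Spry4* itself. Its CV was 21.3% in VEH-CD and 21.9% in VERCUR-WT, so this setting could not test its call. With only the groups compared and with no intensity trend the count was 0 too (*Spry4* adjusted p 0.0538 and 0.108 by limma). It was 5 with sample quality weights (*Dusp4*, *Dusp5*, *Dusp6*, *Spry4* and *Spred2*), 5 after the value farthest from the median was removed from every group whose CV reached 20% (*Dusp1*, *Dusp4*, *Dusp5*, *Spry4* and *Spred2*), and 5 at an unadjusted p with the fold condition. That removal picks values by their spread and so narrows the groups by construction, and with it 972 of all genes were called in place of 44, and 349 with weights. Leaving out each mouse gave 0 to 1. The same removal gave 3 genes for VERCUR-CD vs VEH-CD, 1 for VERCUR-WT vs VEH-WT, 1 for VERCUR-CD vs VEH-WT, 4 for genotype over both treatments and 3 for the interaction, where the test as reported gave 0. Unadjusted p-values with the fold condition gave 3, 2, 1, 2 and 4 in that order, and weights gave 1 for genotype over both treatments. With the replicate block the vehicle count stayed 1, but the gene was *Dusp4* (adjusted p = 0.0429) and *Spry4* had 0.0673.

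Signs reversed for *Dusp1* after the removal, to -0.35 in VERCUR-CD vs VERCUR-WT and to 0.080 in VERCUR-WT vs VEH-WT. Leaving out each mouse gave *Dusp1* -1.16 to 0.080 in VERCUR-WT vs VEH-WT, and in VERCUR-CD vs VERCUR-WT gave *Dusp1* -0.51 to 0.73, *Dusp4* -0.024 to 0.25, *Dusp5* -0.012 to 0.61, *Dusp6* -0.014 to 0.27 and *Spry4* -0.070 to 0.25. Where no construction is named, the cause was not tested. The planned count tests on recovered reads were not run. With 3 mice a group, a gene that was not called may still differ by any amount inside its interval.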
